A study of Mus musculus with 6 samples.

Results

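The genes that handle extracellular ATP and adenosine were compared between Tregs isolated from the BM of CML mice and Tregs from the BM of naive mice. The group holds 8 genes, chosen by name from the 36930 features of each deposited table: Entpd1, Nt5e, Adora2a, Adora2b, Ada, Adk, Slc29a1 and P2rx7. All 8 were present once in every table, and 7 of them were among the 13923 features with a mean of at least 1 RPKM (reads scaled to transcript length and library size) that were tested. Each group had 3 mice with 1 library per mouse, and single values are given in the order of replicates 1, 2 and 3. The labels name no litter or batch. All mice were 8 weeks old and of the strain and genotype Foxp3-DTR-GFP, in which the Foxp3 locus drives a diphtheria toxin receptor and GFP. For the CML group, LSKs (lineage-negative, c-kit- and Sca-1-positive stem and progenitor cells) were transduced with BCR-ABL1-GFP and injected i.v. into mice that had not been irradiated, whereas the naive group carried no leukemia. Leukemia cells of this model carry GFP as well, so GFP alone does not separate them from Tregs.

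As background, ATP that leaves stressed or dying cells is an alarm signal, and adenosine made from it restrains immune cells. CD39, the product of Entpd1, removes phosphates from ATP and ADP, and CD73, the product of Nt5e, turns the resulting AMP into adenosine. Adenosine then acts through G protein-coupled receptors that raise cAMP (the products of Adora2a and Adora2b), is taken up through the equilibrative transporter ENT1 (Slc29a1), and is removed by adenosine deaminase (Ada) or adenosine kinase (Adk). P2rx7 encodes an ion channel opened by high ATP. Tregs of mice are known for surface CD39 and CD73, a pair that lets them make adenosine from ATP.

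Tregs of both groups expressed Foxp3 (297 to 468 RPKM), Cd4 (208 to 309 RPKM) and Il2ra, which encodes CD25 (109 to 277 RPKM), with overlapping groups for these 3 genes. Exons of Foxp3 overlap Flicr on the same strand and Ccdc22, Gm36995 and Ppp1r3f on the opposite strand. Of the 8 Treg markers, Ctla4 (means of 213 and 158 RPKM) and Tnfrsf18 (183 and 111 RPKM) were higher in CML Tregs without overlap, and none of the 8 met the thresholds. The files hold no counts, and the reads per library estimated from the step size of short features numbered 829181 to 7613827 for CML Tregs, compared with 5187987 to 9751911 for naive Tregs. CML replicate 2 had the fewest reads, so its values are the least precise. Markers of other cells were also listed with reads. The summed level of 8 erythroid markers was 35.6 to 209 RPKM in CML Tregs and 5.01 to 30.2 RPKM in naive Tregs, without overlap. The sum of 12 granulocyte markers was 10.2, 207 and 223 RPKM in CML replicates 1, 2 and 3 and 30.8 to 53.9 RPKM in naive Tregs, with Mmp8 at 0 in every library. The 5 dendritic cell markers summed to 139 to 155 RPKM in CML Tregs and 105 to 257 RPKM in naive Tregs, mostly from Siglech. Of them, Cd209a was lower in CML Tregs without overlap (means of 5.19 and 20.5 RPKM), and Batf3 and Xcr1 were at 0 in all 6 libraries. B cell markers summed to 12.1 to 26 RPKM in CML Tregs and 25.8 to 38.0 RPKM in naive Tregs, with Blnk at 8.91 to 29.6 RPKM and Pax5, Ebf1 and Vpreb1 at 0 in all 6 libraries. The 6 markers of stroma and endothelium summed to 32.6 to 47.0 RPKM in CML Tregs and 68.4 to 98.2 RPKM in naive Tregs, mostly from Pecam1. Pecam1 itself was lower in CML Tregs without overlap (means of 29.8 and 77.6 RPKM). Cdh5 went the other way, higher in CML Tregs without overlap (6.93 and 3.25 RPKM), and Cxcl12 and Lepr were at 0 in every library. In such bulk samples, more cells that express a gene and more RNA per cell cannot be told apart.

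Entpd1 and Nt5e encode the 2 surface enzymes that act in sequence, and the ratio of their RNA is compared between the groups here. The bases just before their starts as annotated by RefSeq are shown for that reason, on build GRCm38.p6. Entpd1 has 2 starts and Nt5e has 1 start in this table, all on the plus strand, and the windows of 250 bases lie at chr19:40612116-40612365, chr19:40659520-40659769 and chr9:88327359-88327608. In a second annotation, GENCODE M21, Nt5e starts at 88327197, ahead of its window, so by that annotation the window lies inside the gene. The second Entpd1 window also lies inside its gene. Capitals mark matches on either strand to 7 motifs that were searched, and matches that overlap were each counted.
Entpd1, first start: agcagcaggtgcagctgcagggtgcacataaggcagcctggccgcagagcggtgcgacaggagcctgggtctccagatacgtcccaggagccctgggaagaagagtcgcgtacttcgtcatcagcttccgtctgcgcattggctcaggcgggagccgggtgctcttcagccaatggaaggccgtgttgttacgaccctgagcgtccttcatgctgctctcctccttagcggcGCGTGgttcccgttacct
Entpd1, second start: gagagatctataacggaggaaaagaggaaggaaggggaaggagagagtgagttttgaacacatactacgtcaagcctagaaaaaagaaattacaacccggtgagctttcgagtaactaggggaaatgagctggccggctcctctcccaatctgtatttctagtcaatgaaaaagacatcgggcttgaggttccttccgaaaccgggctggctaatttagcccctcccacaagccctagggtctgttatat
Nt5e: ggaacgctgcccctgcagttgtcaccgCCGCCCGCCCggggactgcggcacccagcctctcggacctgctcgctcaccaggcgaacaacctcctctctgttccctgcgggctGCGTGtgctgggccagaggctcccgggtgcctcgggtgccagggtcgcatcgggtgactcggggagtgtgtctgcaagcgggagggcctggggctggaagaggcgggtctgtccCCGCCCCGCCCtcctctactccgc
The motifs were the cAMP response element TGACGTCA, the cores ACGTG of the hypoxia response element and GCGTG of the xenobiotic response element, the GC box GGGCGG, AP-1 TGANTCA, STAT TTCNNNGAA and forkhead TGTTTAC. The Nt5e window held 4 GC boxes and 1 xenobiotic core. The first Entpd1 window held 1 xenobiotic core, and the second held no match. Of all 32851 windows of this length, 32.7% held a GC box, 28.2% a xenobiotic core, 16.6% a hypoxia core, 7.02% the STAT motif, 6.75% the AP-1 motif, 3.17% the forkhead motif and 1.55% the cAMP response element. The bases were 72% G or C before the RefSeq start of Nt5e, and 62.4% and 47.2% before the first and second starts of Entpd1. These matches describe letters only, and the data do not say which start was used.

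Entpd1, on chromosome 19 from 40612366 to 40741602 (GENCODE M21, GRCm38), had the largest difference of the tested members. Its level was 47.2, 42.2 and 65.2 RPKM in the CML libraries versus 17.1, 26.2 and 31.5 RPKM in the naive libraries. Every CML library lay above every naive library, and the lowest CML value was in the library with the fewest reads. The means were 51.6 ± 12.1 RPKM for CML Tregs versus 24.9 ± 7.28 RPKM for naive Tregs (SD, n = 3 each), a ratio of 2.07. On the log2(RPKM + 1) scale, which understates the change of low genes, the difference was 1.04 with a standard error of 0.29 (95% interval 0.37 to 1.70, or 1.30- to 3.24-fold). The unadjusted p from limma's moderated test was 0.00704, but the adjusted p over 13923 features was 0.296, so Entpd1 did not pass the threshold. Exact permutation (2-sided, 20 assignments) gave p = 0.1, the smallest value that 3 mice against 3 allow. With each library left out in turn, the log2 difference lay between 0.80 and 1.22.

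In the ranking of all tested features by log2 fold change, Entpd1 was at position 442. The length of the longest GENCODE M21 transcript, 4221 bases, and the estimated reads of each library give about 148 reads on Entpd1 in CML replicate 2 and about 375 to 1518 reads in the other libraries. These numbers describe counting error only, since reads amplified by PCR may stem from the same molecule. Erythroid markers and Entpd1 were both without overlap between the groups, and both had their highest value in CML replicate 3 (209 RPKM for the erythroid sum). Granulocyte markers did not follow the same order, because CML replicate 1, at 10.2 RPKM for these markers, was below every naive library and had 47.2 RPKM of Entpd1. The part of other cells in the Entpd1 value was not tested.

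Nt5e, on chromosome 9 from 88327197 to 88372092, had 43.6, 40.4 and 41.7 RPKM in the CML libraries versus 43.6, 51.1 and 47.3 RPKM in the naive libraries. The groups touched without overlapping, as CML replicate 1 (43.630 RPKM) and naive replicate 1 (43.647 RPKM) were almost equal. The means were 41.9 ± 1.62 RPKM for CML Tregs versus 47.3 ± 3.73 RPKM for naive Tregs (SD, n = 3 each). The log2 difference was -0.17 (standard error 0.18, 95% interval -0.58 to 0.24, limma adjusted p = 0.758). The median over all features tested was also lower in CML Tregs, at -0.18, and Nt5e lay 0.0075 above that median. The interval leaves room for a decrease to 0.67-fold and an increase to 1.18-fold. Nt5e was the steadiest member, with a coefficient of variation of 3.87% in CML Tregs and 7.88% in naive Tregs.

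**Figure D1:**
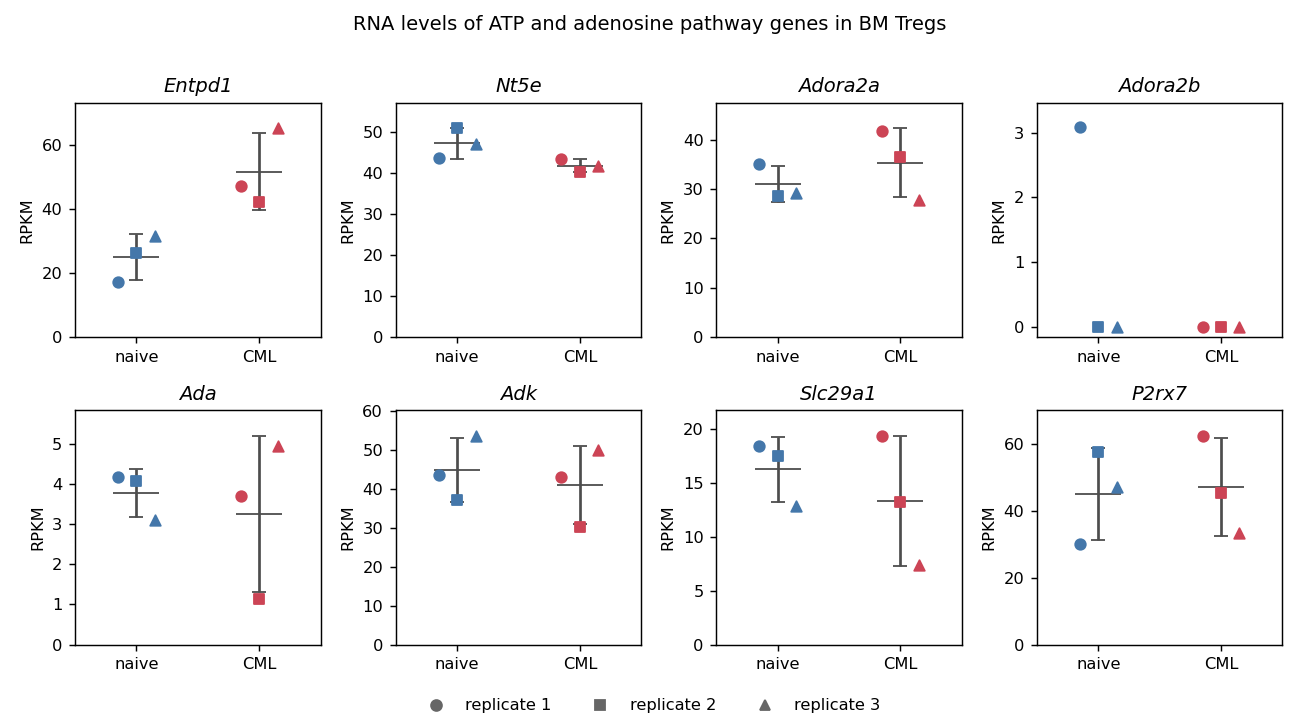
RPKM of the 8 genes in each library, with naive libraries in blue, CML libraries in red and a marker shape for each replicate number. Horizontal lines and bars are the mean and SD of 3 mice, left out for Adora2b, which was listed with reads in naive replicate 1 and in no other library. Entpd1 lies between 42.2 and 65.2 RPKM in CML Tregs and between 17.1 and 31.5 RPKM in naive Tregs, and Adora2a, Ada, Adk, Slc29a1 and P2rx7 overlap.

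Because both enzymes were measured in the same library, their ratio does not depend on the scaling between libraries. The Entpd1 value divided by the Nt5e value was 1.08, 1.05 and 1.56 in the CML libraries versus 0.392, 0.513 and 0.666 in the naive libraries. The ratio was thus above 1 in each CML library and below 1 in each naive library, but it was close to 1 in CML replicates 1 and 2. In CML replicate 2 the values stand for about 148 reads on Entpd1 and 134 reads on Nt5e. Which side of 1 a ratio falls on also depends on the transcript lengths used. On the log2 scale with 1 RPKM added to both values, the mean ratio was 0.27 ± 0.32 for CML Tregs versus -0.94 ± 0.37 for naive Tregs (SD, n = 3 each). The difference of 1.21 was larger than the spread within either group, and the exact 2-sided permutation test gave p = 0.1, the smallest that 3 mice against 3 allow. It stayed between 1.02 and 1.39 when each library was left out in turn. These are RNA values, and enzyme activity was not measured in these files.

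The second comparison with Entpd1 was P2rx7, the channel that senses the ATP which CD39 removes. P2rx7, on chromosome 5 from 122643911 to 122691432, had 62.5, 45.4 and 33.2 RPKM in the CML libraries versus 30.2, 57.5 and 47.2 RPKM in the naive libraries. Exons of P2rx7 overlap Mir8115 on the same strand. Both groups spread over nearly the same range, with a coefficient of variation of 31.3% in CML Tregs and 30.7% in naive Tregs. The means were 47.0 ± 14.7 and 45.0 ± 13.8 RPKM (SD, n = 3 each), and the log2 difference was 0.066 (standard error 0.31, 95% interval -0.66 to 0.79, limma adjusted p = 0.954). Its sign turned without CML replicate 1, to -0.16, and without naive replicate 1, to -0.19. The ratio of Entpd1 to P2rx7 was 0.756, 0.930 and 1.96 in the CML libraries versus 0.567, 0.456 and 0.667 in the naive libraries, without overlap. The log2 difference of this ratio was 0.97 (exact 2-sided permutation p = 0.1, the smallest possible), and without CML replicate 3 it was 0.57. Both ratios hold the same Entpd1 values, with a log2 difference of 1.04, against -0.17 for Nt5e and 0.066 for P2rx7. They mostly restate the Entpd1 difference and are no separate evidence. The 95% interval of P2rx7 reaches from 0.63- to 1.73-fold, so a moderate change of this gene in either direction was not detectable here.

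**Figure D2:**
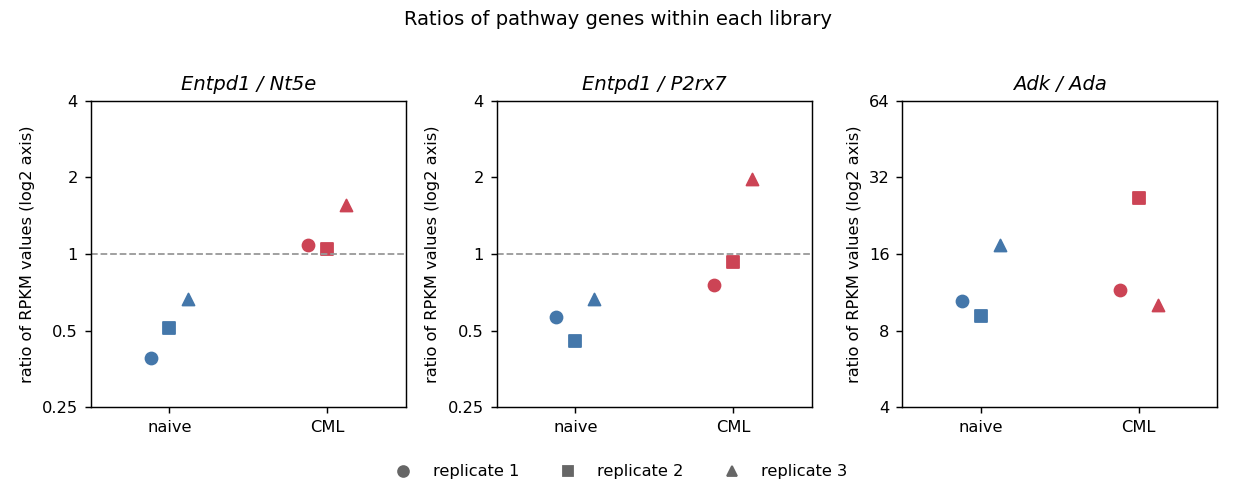
Ratios of 2 RPKM values in the same library for Entpd1 over Nt5e, Entpd1 over P2rx7 and Adk over Ada, on log2 axes, with naive libraries in blue, CML libraries in red and shapes for replicate numbers. The dashed line marks equal values, and the Entpd1 to Nt5e ratio lies at 1.05 to 1.56 in CML Tregs and at 0.392 to 0.666 in naive Tregs.

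Of the adenosine receptors that raise cAMP, Adora2a was the one listed with reads in every library. Adora2a, on chromosome 10 from 75316877 to 75334784, had 41.8, 36.6 and 27.8 RPKM in the CML libraries versus 35.2, 28.6 and 29.3 RPKM in the naive libraries. CML replicates 1 and 2 lay above all naive libraries and CML replicate 3 lay below them. The means were 35.4 ± 7.06 and 31.0 ± 3.60 RPKM (SD, n = 3 each), with a log2 difference of 0.17 (standard error 0.23, 95% interval -0.36 to 0.70, limma adjusted p = 0.818).

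Adora2b, on chromosome 11 from 62248984 to 62266453, had 3.09 RPKM in naive replicate 1 and was listed without reads in the other 5 libraries. With a transcript of 1845 bases, that value corresponds to about 29.5 reads, whereas 3 reads would give 0.167 RPKM in naive replicate 3 and 1.96 RPKM in CML replicate 2. The 3.09 RPKM of naive replicate 1 is above the 3-read level of each library, and nearest to it in CML replicate 2. Its mean was under 1 RPKM, so it was not tested, and a value from 1 mouse carries no comparison. Of the receptors outside the group, Adora1, which lowers cAMP, was at 0 in all libraries, and Adora3 reached 0.119 RPKM in naive replicate 2 and was at 0 elsewhere, with exons that overlap Tmigd3.

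Adenosine can leave the extracellular space through Slc29a1, on chromosome 17 from 45585200 to 45599606. Its level was 19.4, 13.2 and 7.36 RPKM in the CML libraries versus 18.4, 17.6 and 12.9 RPKM in the naive libraries. The CML group spanned a range from above the highest to below the lowest naive library. The means were 13.3 ± 6.04 and 16.3 ± 3.0 RPKM (SD, n = 3 each), and the log2 difference was -0.35 (standard error 0.39, 95% interval -1.24 to 0.54, limma adjusted p = 0.772). Without CML replicate 3 the log2 difference was -0.0051, so the lower CML mean rested on that library. Exons of Slc29a1 overlap those of Gm17080 on the opposite strand, and reads of both cannot be told apart without strand information. The related transporter Slc29a2 was at most 0.801 RPKM and at 0 in 3 libraries. Slc28a2, a listed nucleoside transporter named here after its values were seen, was higher than Slc29a1 in every library. It had 56.4, 30.6 and 60.1 RPKM in the CML libraries versus 79.0, 60.9 and 62.9 RPKM in the naive libraries. The groups did not overlap, with CML Tregs lower (log2 difference -0.50, limma adjusted p = 0.597).

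Inside the cell, adenosine is phosphorylated to AMP by Adk or deaminated to inosine by Ada, and loss of Ada causes severe immunodeficiency. Adk, on chromosome 14 from 21052574 to 21448569, had 43.0, 30.2 and 50.0 RPKM in the CML libraries versus 43.6, 37.3 and 53.8 RPKM in the naive libraries. The groups overlapped, with means of 41.1 ± 10.1 and 44.9 ± 8.32 RPKM (SD, n = 3 each) and a log2 difference of -0.14 (standard error 0.25, 95% interval -0.72 to 0.44, limma adjusted p = 0.870). Without CML replicate 2 the sign turned, to 0.061.

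Ada, on chromosome 2 from 163726584 to 163750239, was far lower, with 3.72, 1.14 and 4.96 RPKM in the CML libraries versus 4.19, 4.09 and 3.10 RPKM in the naive libraries. The value of CML replicate 2 is below the 2.14 RPKM that 3 reads on a transcript of 1688 bases would give there. It stands for about 1.59 reads and carries almost no information. The means were 3.27 ± 1.95 and 3.79 ± 0.60 RPKM (SD, n = 3 each), with a log2 difference of -0.28 (standard error 0.53, 95% interval -1.50 to 0.93, limma adjusted p = 0.874). The sign turned without CML replicate 2, to 0.15, and with quantile normalization, to 0.063. In every library Adk had more RNA per length than Ada, by 11.5-, 26.5- and 10.1-fold in the CML libraries versus 10.4-, 9.11- and 17.4-fold in the naive libraries. The log2 ratio of Ada to Adk differed by -0.14 between the groups, which is smaller than the spread within them (exact 2-sided permutation p = 0.6). With single libraries left out it ranged from -0.39 (without naive replicate 3) to 0.093 (without CML replicate 2), and it was also above 0 without naive replicate 2, at 0.028.

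Across the pathway, 0 of the 7 tested members met both thresholds of the limma fit (adjusted p of 0.05, 1.5-fold difference), which called 0.172% of all features tested, 0.0431% as higher and 0.129% as lower. With an unadjusted p below 0.05 and the 1.5-fold difference kept, 1 member (Entpd1) was higher in CML Tregs, against a background of 2.61% of features, and 0 were lower, against 5.94%. Entpd1 alone was higher without overlap (background 4.84%) and Nt5e alone was lower without overlap (background 12.2%). The median log2 difference of the 7 members was -0.14, compared with -0.18 over all features. The median of all features moved with 1 library, to -0.032 without CML replicate 2. Making the 75th percentiles equal left it at -0.12. Quantile normalization gave -0.0068, but it forces 1 distribution on every library, so that value cannot show whether the shift is stable. In CML replicate 2 the 10 highest features held 50.7% of the RPKM sum, against 28.5% to 31.3% in the other libraries. The part of this in the shift was not tested. Relative to the median of the values as deposited, Entpd1 differed by 1.21, Adora2a by 0.35, P2rx7 by 0.24, Adk by 0.037, Nt5e by 0.0075, Ada by -0.11 and Slc29a1 by -0.17 on the log2 scale.

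The levels per length can be ordered within each group. In naive Tregs the order from the highest mean was Nt5e, P2rx7, Adk, Adora2a, Entpd1, Slc29a1, Ada and Adora2b. The gaps among Nt5e, P2rx7 and Adk and the gap between Adora2a and Entpd1 were within the larger SD of each pair. In CML Tregs the order was Entpd1, P2rx7, Nt5e, Adk, Adora2a, Slc29a1, Ada and Adora2b, and no gap between neighbours among the first 5 genes exceeded the larger SD of the pair. Entpd1 was at rank 5 in naive Tregs and at rank 1 in CML Tregs, but its lead over P2rx7 in CML Tregs was 4.52 RPKM beside an SD of 14.7 RPKM.

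The CML mice also differed among themselves. CML replicate 3 had the highest CML value for 3 members (Entpd1, Ada and Adk) and the lowest for 3 others (Adora2a, Slc29a1 and P2rx7). CML replicate 1 had the highest value for Nt5e, Adora2a, Slc29a1 and P2rx7. CML replicate 2 was lowest for Entpd1, Nt5e, Ada and Adk. That library had the fewest reads and, at 50.7%, the largest part of its RPKM sum in its 10 highest features. The 6 markers of cycling cells summed to 197, 92.8 and 243 RPKM in CML replicates 1, 2 and 3 and to 95.3 to 106 RPKM in naive Tregs, an order of the CML libraries that Entpd1, Ada and Adk share. This order is not particular to cycling markers. The erythroid sum (124, 35.6 and 209 RPKM) and the effector Treg sum (960, 691 and 1103 RPKM) had it too, whereas the granulocyte sum (10.2, 207 and 223 RPKM) did not. The 8 effector Treg markers summed to 691 to 1103 RPKM in CML Tregs and 359 to 415 RPKM in naive Tregs, and the 8 resting T cell markers to 599 to 776 and 1089 to 1686 RPKM. Without overlap, 6 effector markers were higher (background 4.84%) and 6 resting markers lower (background 12.2%). Both thresholds of the limma fit were met by 3 effector markers (Tigit, Tnfrsf9 and Ccr8, background 0.0431%) and 3 resting markers (Tcf7, S1pr1 and Klf2, background 0.129%). The paper also reports Tigit and Tnfrsf9 as upregulated, from these same libraries. The means of Klrg1 (42.9 RPKM in CML Tregs and 50.7 in naive Tregs) and Il7r (240 and 221 RPKM) went against their lists, with overlap. Entpd1 and both sums were without overlap between the groups, and the part of these states in the Entpd1 value was not tested.

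**Figure D3:**
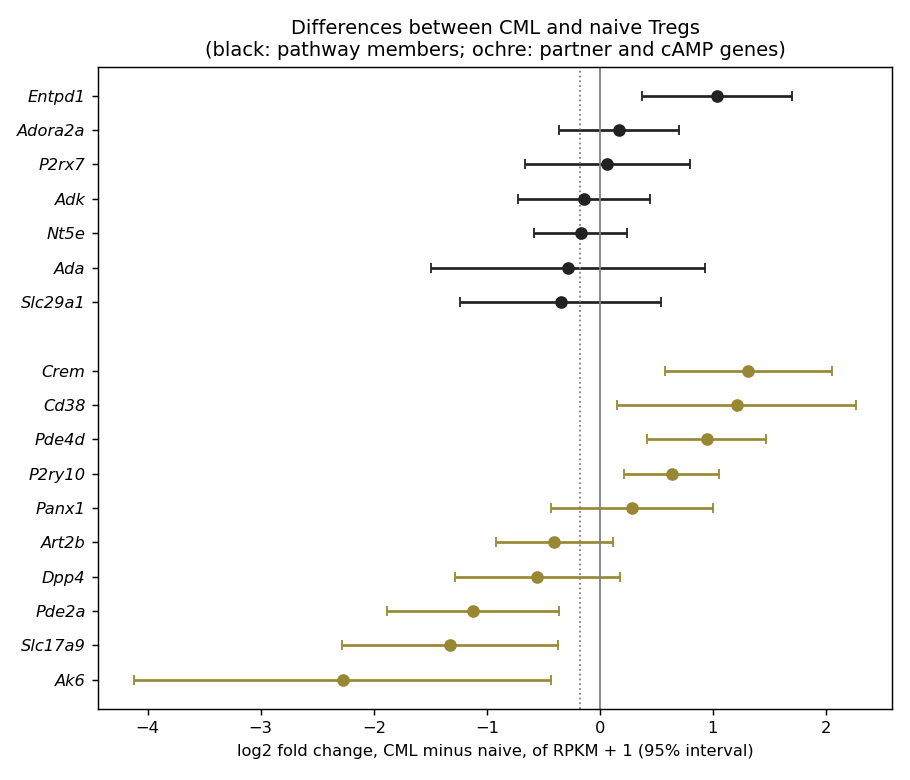
Log2 fold change of RPKM + 1, CML minus naive, with 95% intervals from limma, for the 7 tested members (black) and for genes of the wider pathway lists (ochre). The solid line marks no difference and the dotted line the median of all features tested, -0.18; among the members, the interval of Entpd1 (0.37 to 1.70) is the one that lies above 0.

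Beyond the 8 genes, 89 genes of the purine and cAMP pathways were examined in 5 lists, of which 87 were in the tables, 12 were at 0 in every library and 58 were tested. None met both thresholds in limma. By the unadjusted p below 0.05 with the 1.5-fold difference, 4 were higher in CML Tregs (Pde4d, Crem, P2ry10 and Cd38) and 4 were lower (Pde2a, Slc17a9, Ak6 and Adal). Each count is 6.9% of the genes tested, against 2.61% of all features for higher and 5.94% for lower, so the lower count is near the background. Without overlap between the groups, 6 were higher (10.3%, against 4.84% of all features) and 12 were lower (20.7%, against 12.2%). The median log2 difference of the 58 genes was -0.18, as for all features tested.

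Genes of the cAMP pathway, through which the Adora2a receptor acts, held the smallest p-values of these lists. Crem, a cAMP-responsive transcription factor, had 25, 18.3 and 33.4 RPKM in the CML libraries versus 8.82, 8.00 and 11.7 RPKM in the naive libraries, without overlap (log2 difference 1.31, standard error 0.32, limma adjusted p = 0.245). Pde4d, which degrades cAMP, had 41.8, 37.8 and 55.3 RPKM in the CML libraries versus 21.6, 20.9 and 25.6 RPKM in the naive libraries (log2 difference 0.94, standard error 0.23, limma adjusted p = 0.245). Pde2a, a phosphodiesterase of cAMP and cGMP, went the other way, with 39.9, 17.3 and 35.8 RPKM in the CML libraries versus 67.6, 75.9 and 52.7 RPKM in the naive libraries (log2 difference -1.12, standard error 0.33, limma adjusted p = 0.323). Each of these 3 genes was without overlap between the groups, and exons of Crem overlap Gm6225 on the opposite strand and those of Pde2a overlap Gm45837 on the same strand. Of the 23 cAMP pathway genes tested, 10 were higher and 13 lower in CML Tregs, with a median log2 difference of -0.21.

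Among enzymes and carriers that act before CD73, Cd38, which breaks down NAD at the cell surface, had 23.3, 11.9 and 30.1 RPKM in the CML libraries versus 11.2, 4.61 and 10.4 RPKM in the naive libraries (log2 difference 1.21, standard error 0.46, limma adjusted p = 0.463). The lowest CML and the highest naive value were close, and the unadjusted p of 0.0295 became 0.0832 without CML replicate 1, 0.0995 without CML replicate 3 and 0.102 without naive replicate 2. Slc17a9, which loads vesicles with ATP for release, had 8.93, 5.93 and 3.32 RPKM in the CML libraries versus 18.8, 17.6 and 11.8 RPKM in the naive libraries (log2 difference -1.33, standard error 0.41, limma adjusted p = 0.356), and its unadjusted p of 0.0127 became 0.0531 without naive replicate 1 and 0.051 without naive replicate 2. Panx1, a membrane channel through which ATP can leave cells, had 11.8, 9.67 and 13.9 RPKM in the CML libraries versus 8.40, 10.1 and 9.84 RPKM in the naive libraries, with overlap (log2 difference 0.28, limma adjusted p = 0.770, and a difference of 0.17 without CML replicate 3). Of the 8 other ectonucleotidases tested, 4 were higher and 4 lower, whereas Entpd2 and Enpp3 were at 0 in all libraries.

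Among the P2 receptors and their partners, P2ry10, which belongs to the P2Y family by sequence but responds to lysophospholipids, had 123, 121 and 90.0 RPKM in the CML libraries versus 72.3, 74.8 and 65.0 RPKM in the naive libraries (log2 difference 0.64, standard error 0.18, limma adjusted p = 0.308), and its fold was below 1.5 without CML replicate 1 (log2 difference 0.56), CML replicate 2 (0.57) or naive replicate 3 (0.58). Art2b, a surface enzyme that modifies P2rx7 when NAD is released, had 42.0, 29.1 and 42.7 RPKM in the CML libraries versus 46.7, 46.1 and 57.2 RPKM in the naive libraries, lower without overlap (log2 difference -0.40, standard error 0.22, limma adjusted p = 0.595). Dpp4, whose product CD26 binds adenosine deaminase, had 49.1, 31.4 and 20.3 RPKM in the CML libraries versus 52.9, 43.6 and 44.4 RPKM in the naive libraries, with overlap (log2 difference -0.55, standard error 0.32, limma adjusted p = 0.606), and its exons overlap Gm13561 on the opposite strand. The Dpp4 difference was -0.86 without CML replicate 1 and -0.25 without CML replicate 3, and that of Art2b was -0.23 without CML replicate 2. P2rx4, the other P2X gene above 1 RPKM on average, had 16 to 22.2 RPKM in CML Tregs and 13.3 to 16.9 RPKM in naive Tregs.

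Of 16 intracellular purine enzymes tested, 3 were higher and 13 lower in CML Tregs, and of all 13923 features 4977 were higher and 8946 lower. Their median log2 difference of -0.19 was near the -0.18 of all features, and the median of these enzymes was not formed under other scalings. Ak6, an adenylate kinase, had 9.36, 0 and 1.69 RPKM in the CML libraries versus 11.1, 18 and 12.6 RPKM in the naive libraries (log2 difference -2.27, standard error 0.80, limma adjusted p = 0.425). The difference was -1.47 without CML replicate 2, -3.16 without CML replicate 1 and -5.76 with a pseudocount of 0.001, and the unadjusted p was 0.113 with that pseudocount, 0.0542 without CML replicate 3 and 0.0692 without naive replicate 2. Its exons overlap those of Taf9 on the same strand and Rad17 on the opposite strand, so its reads are uncertain. Adal, an adenosine deaminase-like enzyme named here after its values were seen, had 7.12 RPKM in CML replicate 1, was listed without reads in CML replicates 2 and 3, and had 5.22 to 11.9 RPKM in naive Tregs. For both genes, the libraries at or near 0 are those with the fewest reads.

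**Figure D4:**
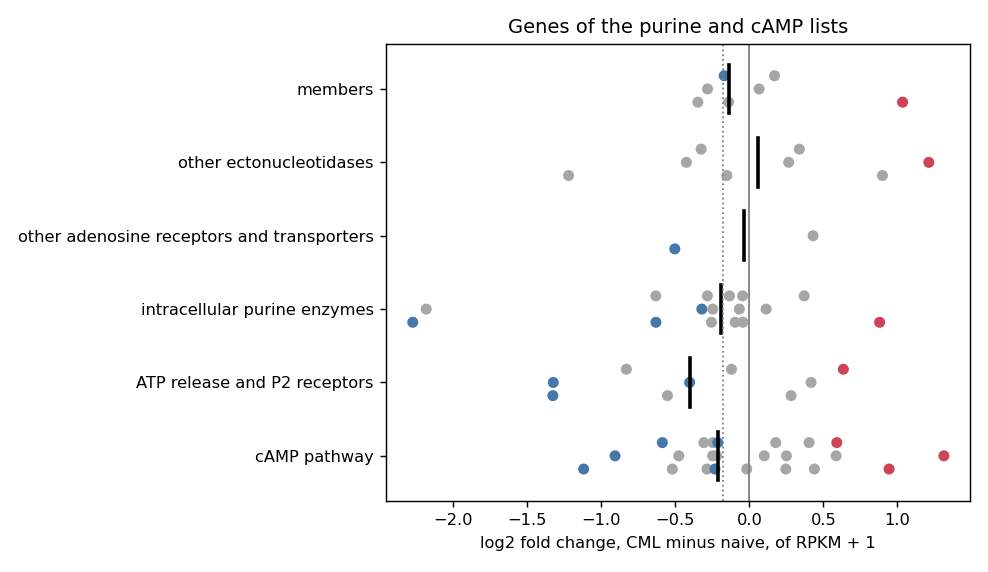
Log2 fold change of RPKM + 1, CML minus naive, for each tested gene of the members and of 5 pathway lists, with red points where all CML libraries lie above all naive libraries, blue points where they lie below and gray points where the groups overlap. Black bars are list medians, which run from -0.40 to 0.057, and the dotted line is the median of all features tested, -0.18.

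The features most like each member were sought by Pearson correlation of log2(RPKM + 1) over the 6 libraries among 7825 other genes that averaged 10 RPKM or more. For Entpd1 these were Map6, Lxn and Abcb1a (r = 0.99 each). For Nt5e they were Dus3l, Zfp644 and Il2rg (r = 0.98, 0.97 and 0.97), for Adora2a Sars2, Itprip and Timp2 (r = 0.97, 0.97 and 0.95), and for P2rx7 Zbtb33, Ntpcr and Sertad1 (r = 0.99, 0.97 and 0.97). For Adk they were Atp13a3, Gm32584 and Phc2 (r = 0.99, 0.99 and 0.98), and for Slc29a1 LOC105245006, Mplkip and Zfp445 (r = 0.99 each). The 6 libraries share differences of group and depth, and the correlations describe a likeness of pattern only. The matches were also picked as the highest among 7825 genes over 6 libraries, so r values this high can arise from the search alone. None of the 21 pairs of tested members had an r above 0.7 over the 6 libraries, and 11 of the 21 were negative. For deviations from the group means, the r values largest in size were 0.90 (Adora2a with Slc29a1), 0.81 (Nt5e with P2rx7) and -0.79 (Entpd1 with Adora2a). They were picked from 21 pairs over 6 libraries, so they are a description only.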

How the data were processed

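RNA of FACS-purified BM Tregs was measured in 3 CML and 3 naive mice, grouped by the sample labels. The authors made SMART-Seq libraries, ran single-end sequencing on a NextSeq instrument, and used SeqMan NGen for assembly and ArrayStar for quantification. The submitters' processing notes name GRCm38 (mm10), and the annotation is not given in the sources used here. The deposited tables were taken to hold RPKM, although no source names the unit, because the values are not whole, sum to 669761 to 815919 per library and, multiplied by feature length, fall partly on steps. Products came from 1297 short features, of which 65 to 177 per library had a product of at most 20 steps and did not define the step. Of these, 30.5% to 59.0% were within 0.05 of an integer multiple, against 10% if spread evenly. The step, the smallest product found at least 5 times within 0.5%, gave the estimated reads, which were used only to describe depth and the level of 3 reads. These estimates reflect counting error only. A value of 0.001 marks no reads and was set to 0. The 41 repeated names stayed separate features.

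Without counts, the count-based test of the study could not be applied. Differences were therefore fitted with limma 3.58.1 in R 4.3.3 (lmFit, eBayes with trend) on log2(RPKM + 1) for the 13923 features with a mean of 1 RPKM or more, with Benjamini-Hochberg adjustment over all of them and the study's thresholds (adjusted p 0.05, fold 1.5). Single ratios were compared by exact permutation. The members and lists were chosen with earlier results of these data known. The genes named were the members, list genes without overlap past an unadjusted p of 0.05 and the fold, 5 near partners, the Treg markers, markers of other cells that moved with the groups, and the 3 genes most alike to each member above 10 RPKM. The planned ratio of Adora2a to Adora2b was not formed, because Adora2b was listed without reads in 5 libraries. Alternatives covered pseudocount, low-value filter, scaling, each library left out, replicate block, prior trend and library weights. Other steps ran in Python 3.11.15 (numpy 2.4.6, scipy 1.17.1, pandas 2.3.3).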

Additional observations from a re-analysis of the deposited data

How the results depend on the processing

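No member tested passed the adjusted p of 0.05 with a fold of 1.5 under any of the 15 alternatives, of which the filter at a mean of 5 RPKM did not test Ada. Entpd1 stayed higher in CML Tregs in all of them, with log2 differences of 0.80 to 1.22 and adjusted p of 0.188 (quantile normalization) to 0.791 (without naive replicate 1). Nt5e stayed lower (-0.23 to -0.10), Adora2a higher (0.044 to 0.33) and Slc29a1 lower (-0.65 to -0.0051). The sign turned for Ada with quantile normalization (0.063) and without CML replicate 2 (0.15), for Adk without CML replicate 2 (0.061), and for P2rx7 without CML replicate 1 (-0.16) and without naive replicate 1 (-0.19). With each library left out, Ada ranged from -0.58 to 0.15, Adk from -0.29 to 0.061 and P2rx7 from -0.19 to 0.29. Without the filter on low values, Adora2b had a log2 difference of -0.68 (limma adjusted p = 0.709) that rests on naive replicate 1. Of the checks of the label, Il2ra ranged from -0.00024 (without CML replicate 1) to 0.67 and Cd4 from -0.090 (without CML replicate 3) to 0.19 when libraries were left out.

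The number of features called among all tested, 24, was 0 with a pseudocount of 0.001, 1 without the filter, 53 with the same 75th percentile, 53 with quantile normalization, 11 without the trend and 45 with library weights, and 0 to 29 with each library left out (8 without CML replicate 3, 0 without naive replicate 1 and 0 without naive replicate 2). The cause was not tested. With the replicate block it was 1. The block is no pairing, as same-numbered libraries belong to different mice and their deviations correlated by -0.019 to -0.0016, and under it Entpd1 had a log2 difference of 1.04 (adjusted p = 0.395). At the unadjusted p, quantile normalization changed the 363 higher and 827 lower features to 624 and 590. Among the pathway lists, 3 to 5 genes were higher and 1 to 7 lower at the unadjusted p with each library left out (7 without CML replicate 1, 1 without naive replicate 2). Depth limits Ada in CML replicate 2, where its value lies below the level of 3 reads.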
